A study of Mus musculus with 2 samples.

Results

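The heat shock and DnaJ chaperone genes of the mouse adrenal gland are described here. Members were chosen by gene symbol: a name starting with Hspa, Hspb, Hspd, Hspe or Hsph and a number, with Hsp90, or with Dnaja, Dnajb or Dnajc and a number, and at least 1 protein-coding transcript. The rule found 72 genes of the 55536 in the gene table, of which 22028 are protein-coding. A further 14 symbols matched but had no protein-coding transcript, and these are pseudogenes of the same families.

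Hsp70 proteins bind exposed hydrophobic stretches of unfolded proteins in a cycle driven by ATP. J-proteins, the products of the Dnaj genes, bring them their clients and start ATP hydrolysis, and exchange factors such as the Hsp110 proteins release the nucleotide and the client. Hsp90 helps steroid receptors and kinases reach and keep their active form, the Hsp60 chaperonin folds proteins inside mitochondria, and small heat shock proteins hold unfolded clients. Some members are made at all times and others mainly after heat or other proteotoxic stress, when heat shock factor 1 binds heat shock elements in their promoters. The adrenal cortex makes steroids partly in mitochondria and the endoplasmic reticulum, and the medulla packs catecholamines into vesicles, so chaperones of these compartments are also of interest here.

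The series holds 1 group of 2 libraries of adrenal gland total RNA from female mice of the strain B6CASTF1/J at 14 days of age, with no treatment named, 300 ng of starting RNA, reduced ribosomal RNA and ERCC spike-in RNA. The cross is an F1 hybrid of a C57BL/6 and a CAST strain. The tissue label of replicate 1 names a pool of 3 females and that of replicate 2 a single numbered female, although both library descriptions name the pool and both samples carry the same donor identifier. The labels thus leave unclear whether these are separate animals, and part of the SD over these libraries may be technical.

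The gene tables held 37586172 expected counts in replicate 1 and 33844950 in replicate 2, so the 3 counts that a count of 0 allows correspond to 7.98e-06% and 8.86e-06% of a library (counting error only, as for every interval here). Adrenal markers were abundant in both libraries: 6 genes of the cortex summed to 7234 and 3072 TPM (transcripts scaled per length and library size), and 6 of chromaffin cells to 1573 and 722 TPM, in replicates 1 and 2. All 12 were lower in replicate 2. The libraries stood apart in markers of other tissues. All 8 liver markers were higher in replicate 2 (sum 321 and 18623 TPM), as were all 8 of skeletal muscle (23.3 and 498 TPM) and all 5 of fat (2204 and 2454 TPM), while all 6 T cell markers were lower (55.3 and 1.26 TPM). In bulk tissue, fewer cells of a type and less RNA per cell cannot be told apart.

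Most chaperone genes were expressed, and a few carried most of the signal. A level of 1 TPM was reached by 61 of the 72 members in the first library and 62 in the second, and 60 did so in both. The median member stood at 11.0 and 8.34 TPM, beside 2.05 and 1.89 TPM for all protein-coding genes. At 100 TPM or more stood 9 and 8 members, which is 12.5% and 11.1% of them, beside 2.03% and 1.90% of protein-coding genes. Members summed to 3009 and 2332 TPM, or 1.04% and 0.836% of the TPM of protein-coding genes. The 10 most abundant members were the same genes in both libraries and held 74.2% and 72.4% of that sum.

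By family, the 13 Hspa genes held 31.0% and 32.2% of the members' TPM, the 3 Hsp90 genes 25.1% and 22.3%, the 28 Dnajc genes 16.3% and 17.6%, and Hspd1 with Hspe1 15.7% and 13.9%. The 4 Dnaja genes held 5.63% and 7.11% and the 13 Dnajb genes 4.27% and 4.40%. All 8 small heat shock genes together held 1.61% and 2.11%. No family's share differed by more than a few percentage points between the libraries, although the summed TPM of most families was lower in replicate 2.

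**Figure D1:**
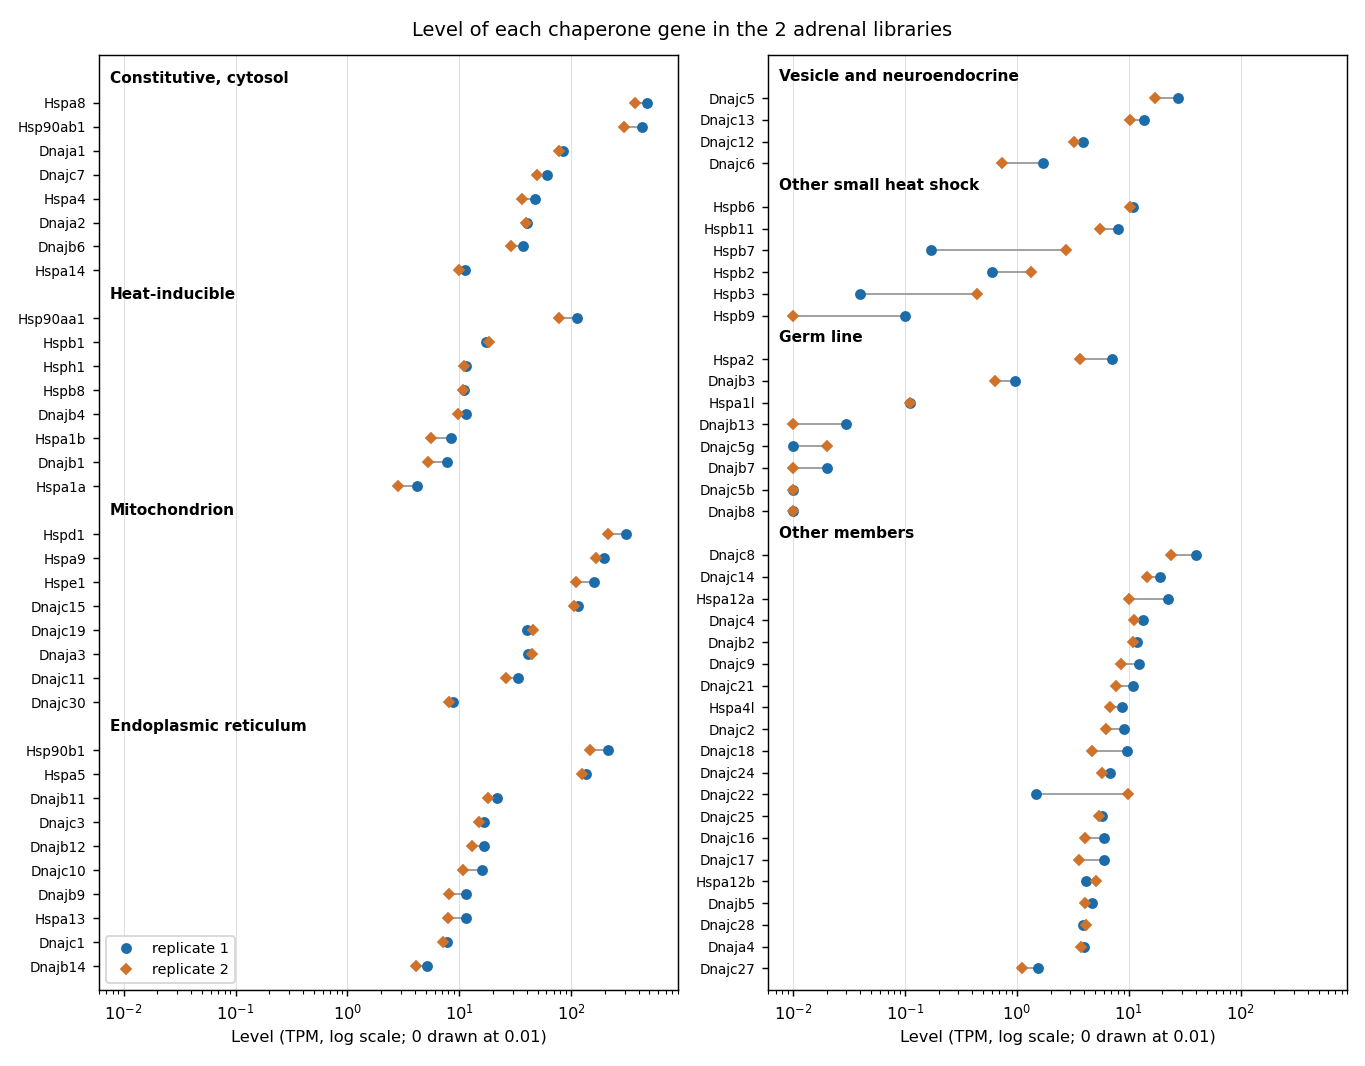
Level of each of the 72 members in TPM (x axis, log scale) in replicate 1 (circles) and replicate 2 (diamonds), ordered within classes by mean level. Hspa8 leads at 477 and 369 TPM, the heat-inducible genes other than Hsp90aa1 sit between 2.81 and 18.4 TPM, and Hspb7 and Dnajc22 show the widest gaps among members above 1 TPM in either library.

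The constitutive chaperones of the cytosol were the most abundant class. Its 8 genes summed to 1186 and 908 TPM, or 39.4% and 38.9% of the members' TPM. Hspa8, the constitutive Hsp70 (Hsc70), led all members at 477 and 369 TPM in the respective libraries (423 ± 76.2, SD, n = 2). Hsp90ab1, the constitutive Hsp90, followed at 428 and 298 TPM (363 ± 92.4, SD, n = 2). Their ranges over the libraries overlapped, although Hspa8 was the higher of these within each library of the gene table. In the second transcript table, a separate quantification, the order was reversed in both libraries. Hsp90ab1 stood there at 897 and 475 TPM and Hspa8 at 600 and 410 TPM, so which gene leads depended on the quantification.

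The cytosolic J-proteins and exchange factors were present at lower levels. Dnaja1, a J-protein that works with Hspa8 on newly made proteins and receptors, stood at 83.9 and 77.9 TPM. Dnajc7, which can bind Hsp70 and Hsp90 together, stood at 60.9 and 49.1 TPM. Hspa4, an Hsp110-type exchange factor, stood at 47.9 and 36.3 TPM, and Dnaja2, another J-protein of the Dnaja type, at a mean of 39.8 TPM (SD 0.318, n = 2). Dnajb6, which holds back protein aggregation, stood at 36.7 and 28.7 TPM, and Hspa14, which works at the ribosome, at 11.3 and 9.92 TPM.

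The heat-inducible class was low beside the constitutive cytosolic class, with the exception of Hsp90aa1. Its median was 11.3 and 10.3 TPM, below that of the constitutive class (54.4 and 44.3 TPM) but near that of all members (11.0 and 8.34 TPM). The 8 heat-inducible genes summed to 186 and 141 TPM (6.17% and 6.03% of the members' TPM), of which Hsp90aa1 alone gave 114 and 77.1 TPM. Hspb1, the small heat shock protein Hsp27, stood at 17.5 and 18.4 TPM. Hsph1, the inducible Hsp110, stood at 11.5 and 11.1 TPM, Hspb8, a small heat shock protein that works with Bag3, at 11.1 and 10.8 TPM, and Dnajb4 at 11.5 and 9.81 TPM. Dnajb1, the classical inducible Hsp40, was lower still at 7.73 and 5.22 TPM.

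The inducible Hsp70 genes were also near the bottom of the class, with Dnajb1 between them. Hspa1b stood at 8.47 and 5.63 TPM and Hspa1a at 4.19 and 2.81 TPM, and these rest on 792 and 502 expected counts for Hspa1b and 415 and 266 for Hspa1a. They lie on chromosome 17 (mm10), 9951 bases apart on the same strand, and their promoters are near-identical copies: the 250 bases before the starts are 98.8% identical. The deposited posterior SD of the count, which measures how far reads are shared between copies, was 4.33% and 5.63% of the count for Hspa1a and 2.29% and 3.00% for Hspa1b. The split of reads between the copies is therefore less certain than their sum.

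The last 150 bases before the start of both genes are shown because they hold the matched letters and show how alike the copies are (RefSeq, GRCm38.p6, minus strand, 5′ to 3′; capitals mark a letter match to a heat shock element of 2 units, GAANNTTC).
Hspa1a, chr17:34972157-34972306: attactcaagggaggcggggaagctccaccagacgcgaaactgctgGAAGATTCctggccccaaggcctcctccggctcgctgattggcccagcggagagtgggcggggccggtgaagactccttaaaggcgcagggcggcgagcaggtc
Hspa1b, chr17:34959239-34959388: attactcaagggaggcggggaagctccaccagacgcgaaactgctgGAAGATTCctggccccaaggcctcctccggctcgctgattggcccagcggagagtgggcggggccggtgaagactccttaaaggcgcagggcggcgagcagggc

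Constitutive and inducible partners were compared as TPM ratios within each library, which need no scaling between libraries. Since 2 libraries are too few for an exact test to pass 0.05, the SD of the log2 ratio is given instead. Hspa1a and Hspa1b together stood 37.7-fold and 43.7-fold below Hspa8 in replicates 1 and 2 (log2 ratio -5.34 ± 0.15, SD, n = 2). Dnajb1 stood 10.9-fold and 14.9-fold below Dnaja1 (-3.67 ± 0.32). Hsp90aa1 stood 3.77-fold and 3.86-fold below Hsp90ab1 (-1.93 ± 0.03), and Hsph1 4.17-fold and 3.28-fold below Hspa4 (-1.89 ± 0.25). In each of these 4 pairs the inducible gene was the lower one in both libraries, by more than the spread between them.

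The size of these gaps depended on which transcripts were counted. Over protein-coding transcripts only, the log2 ratio was -4.97 for the Hsp70 pair, -2.54 for the Hsp90 pair and -2.65 for Dnajb1 against Dnaja1. In the second transcript table, the Hsp90 ratio was 6.24-fold in replicate 1 and 3.88-fold in replicate 2. Among the other pairs, Hspa1a stood 2.02-fold and 2.00-fold below Hspa1b, Hspb8 1.58-fold and 1.71-fold below Hspb1, and Dnajb4 1.49-fold and 1.88-fold above Dnajb1.

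**Figure D2:**
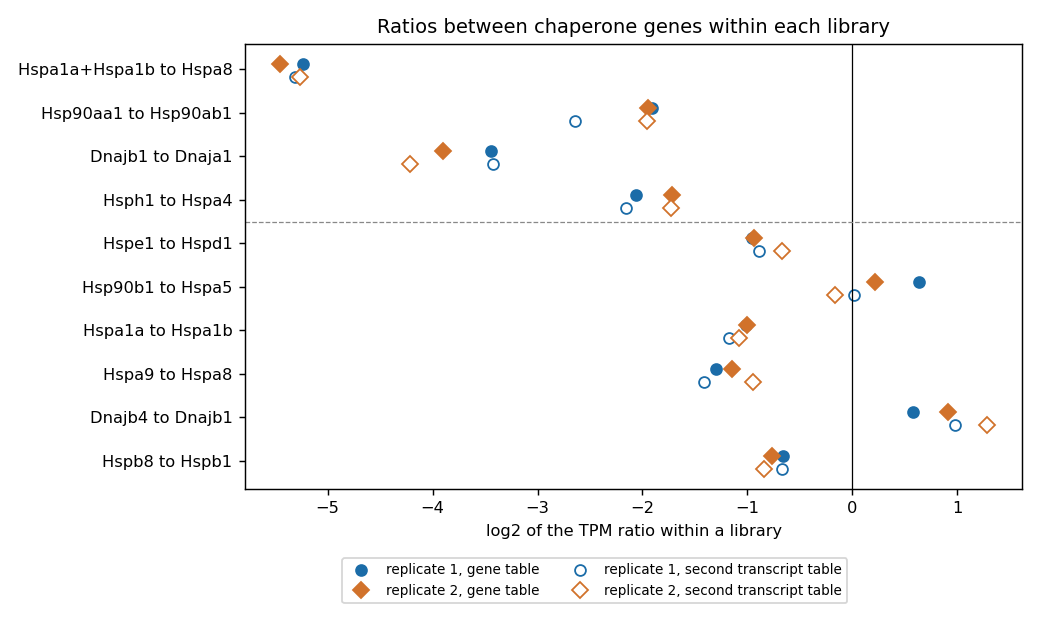
log2 of the TPM ratio (x axis) for 10 gene pairs in replicate 1 (circles) and replicate 2 (diamonds), from the gene table (filled) and the second transcript table (open). The 4 pairs above the dashed line set an inducible gene against its constitutive partner, and all 16 of their points lie below 0; Hsp90b1 to Hspa5 lies above 0 in the gene table at 0.63 and 0.22 and near 0 in the second at 0.01 and -0.17.

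Promoter windows of 300 bases (250 before and 50 after a RefSeq start) were matched by symbol for 58 members, 75 windows in all. A heat shock element of 2 units was searched as GAANNTTC or TTCNNGAA, each of which reads the same on both strands. A match was present in 15.1% of all 32851 windows and in 24.0% of the members' windows. Counted by gene, with a match in any window, it was present in 17.0% of 27025 genes and in 27.6% of the 58 members. By class, 6 of 7 heat-inducible genes with a window held a match, beside 2 of 6 constitutive cytosolic genes, 2 of 5 mitochondrial, 2 of 5 other small heat shock genes, 1 of 9 of the endoplasmic reticulum, 1 of 7 of the germ line, 0 of 2 of vesicles and 2 of 17 other members. Hspa8, Hsp90ab1 and Hsp90aa1 are not among the 58. Dnajb1 was the heat-inducible gene with no such letters in its windows. The Hspb8 match lies after the start, and the Dnajb4 match is not in all of its windows. Hspa1a and Hspa1b are near-identical copies with their match at the same place. The 2 mitochondrial genes, Hspd1 and Hspe1, share 1 site, so these counts rest on fewer separate sites than genes.

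A longer element of 3 units was searched as GAANNTTC followed by any 2 bases and GAA, on both strands, and every such match also holds the shorter element. It was present in 0.603% of all windows and in 8.00% of the members' windows. Counted by gene, it was present in 0.662% of all genes and in 6.90% of the 58 members. These are 4 members: Hsph1, Dnajb6, Hspd1 and Hspe1. The Hsph1 match lies after the start. Hspd1 and Hspe1 lie head to head on chromosome 1 and their annotated ends overlap by 112 bases, so their match is 1 shared site. It is shown, from the Hspe1 strand, because Hspd1 and Hspe1 are the most abundant members with a 3-unit match (RefSeq, GRCm38.p6, plus strand; capitals mark overlapping 3-unit elements).
Hspe1, chr1:55088054-55088081: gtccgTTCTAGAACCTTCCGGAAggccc

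**Figure D3:**
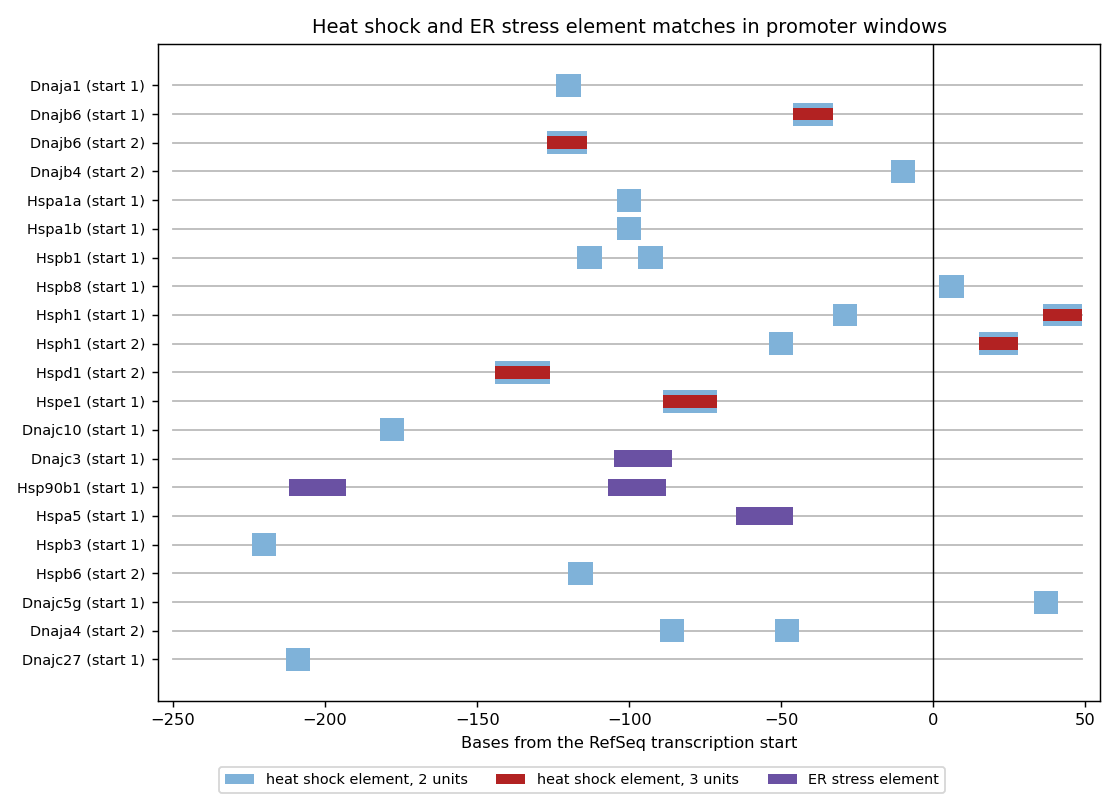
Position of sequence matches (x axis, bases from the RefSeq transcription start) in each promoter window that holds a heat shock element of 2 units (light blue), 3 units (red) or an endoplasmic reticulum stress element (purple). Hspa1a and Hspa1b carry their 2-unit match at the same place, from -104 to -97, and the Hsph1 3-unit match lies after the start.

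The mitochondrial chaperones were the second most abundant class. Their 8 genes summed to 905 and 720 TPM, or 30.1% and 30.9% of the members' TPM. Hspd1, the Hsp60 chaperonin, stood at 311 and 212 TPM (262 ± 70.1, SD, n = 2) and came after Hsp90ab1 in both libraries. Hspe1, its Hsp10 lid, stood at 161 and 111 TPM. The ratio of Hspe1 to Hspd1 was 0.516 and 0.523, a log2 ratio of -0.94 ± 0.01 (SD, n = 2), and in the second transcript table it was 0.541 and 0.628. Reads over the stretch where the genes overlap could be counted for either gene unless strand was used (not given in the sources used here).

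Genes of mitochondrial import were also expressed, counting all transcripts. Hspa9, the mitochondrial Hsp70 that pulls proteins in, stood at 194 and 167 TPM. Dnajc15 and Dnajc19, J-proteins of the import motor, stood at 115 and 105 TPM and at 40.3 and 45.8 TPM. Protein-coding transcripts held only 4.61% and 3.60% of the Dnajc15 level, and 2.15% and 1.53% in the second transcript table. For Dnajc19 they held 29.1% and 36.3%, but 100% in the second transcript table. Dnaja3, the J-protein of the matrix, stood at 41.3 and 44.5 TPM, and Dnajc11, which associates with the complex that shapes the cristae, at 33.5 and 26.3 TPM. Hspa9 stood 2.46-fold and 2.21-fold below its cytosolic relative Hspa8.

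In the endoplasmic reticulum, Hsp90b1 (Grp94) and Hspa5 (BiP) stood far above the other 8 members of the class. Hsp90b1 stood at 212 and 146 TPM and Hspa5 at 137 and 125 TPM. Their order held in both libraries of the gene table but not in the second transcript table, where Hsp90b1 was 1.01-fold of Hspa5 in replicate 1 and 0.890-fold in replicate 2. The J-proteins Dnajb11 (21.9 and 18.2 TPM), Dnajc3 (16.7 and 14.8 TPM) and Dnajc10 (16.1 and 10.7 TPM), which bring clients to Hspa5, were lower. Dnajb9, which also feeds the degradation of misfolded proteins, stood at 11.4 and 8.05 TPM.

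The endoplasmic reticulum stress element was searched as the letters CCAAT, any 9 bases and CCACG on either strand. It was present in 0.119% of all promoter windows and in 4.00% of the members' windows. Counted by gene, it was present in 0.137% of all genes and in 5.17% of the 58 members. These are 3 members: Hspa5, Hsp90b1 and Dnajc3. Every match also holds the shorter CCAAT, which 37.4% of all windows carried. The Hspa5 site and the Hsp90b1 stretch are shown because both lead the class in level and Hsp90b1 holds 2 matches, the second on the other strand (RefSeq, GRCm38.p6, 5′ to 3′; capitals mark the element).
Hspa5, chr2:34772020-34772048, plus strand: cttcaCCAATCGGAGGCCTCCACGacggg
Hsp90b1, chr10:86705510-86705694, minus strand: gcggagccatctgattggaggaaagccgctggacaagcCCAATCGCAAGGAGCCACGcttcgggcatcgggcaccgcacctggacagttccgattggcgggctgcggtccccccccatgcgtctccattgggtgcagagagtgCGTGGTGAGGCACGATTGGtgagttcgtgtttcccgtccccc

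Members of secretory vesicles and endosomes were moderate in level. Dnajc5, the cysteine string protein of synaptic and secretory vesicles, stood at 27.8 and 17.2 TPM. Dnajc13, of endosomes, stood at 13.7 and 10.3 TPM, Dnajc12, which assists tyrosine hydroxylase and its relatives, at 3.89 and 3.25 TPM, and Dnajc6 (auxilin), which strips clathrin from vesicles, at 1.72 and 0.73 TPM. The rest of the small heat shock family ran from Hspb6, a muscle member at 10.9 and 10.2 TPM, and Hspb11, a protein of cilium transport at 8.05 and 5.51 TPM, down to Hspb9. Fewer than 3 counts in both libraries were seen for Hspb9, Dnajb13, Dnajb7, Dnajc5b, Dnajb8 and Dnajc5g, and Hspa1l, a germ cell Hsp70 beside Hspa1a, had 9.43 and 8.42 counts.

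The order of levels in the gene table was stable at the top, although the second transcript table put Hsp90ab1 before Hspa8 in both libraries. In the gene table Hspa8, Hsp90ab1 and Hspd1 took the first 3 places in that order in both libraries, and Dnajc15 took place 8. Hsp90b1 and Hspa9 changed places, as did Hspe1 with Hspa5 and Hsp90aa1 with Dnaja1, so these neighbours do not differ in order beyond the spread. The 15 most abundant members were also the same genes in both libraries. Lower down, Dnajc22 went from rank 61 to 33 and Hspa12a from 20 to 32.

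The libraries were also compared gene by gene. TPM is a share of each library, whereas the differences below are log2 ratios of replicate 2 over replicate 1 after TMM scaling, which leaves the median of all 16153 tested genes near 0. Scaling by ERCC spike-ins instead would shift that median to -0.28 and scaling by total counts to -0.34, so each difference is relative to the typical gene. These scalings lower every difference by a constant. The 12 members called lower below were therefore bound to stay lower under both, which is no check on those calls. Of the 22 called higher, 6 were still called under ERCC scaling and 5 under total scaling, while 8 and 11 had negative values there. Higher and lower are calls of an exact conditional binomial test on counts, two-sided, with Benjamini-Hochberg adjustment over all tested genes. The test compares the reads of these libraries, not conditions, and there is no replicate check on it.

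Chaperone genes differed little between the libraries. Of 63 members with a mean count of at least 20, 22 were called higher in replicate 2 (34.9%), beside 28.8% of all tested genes. Called lower were 12 members (19.0%), beside 24.3% of all genes, and 29 were not called. The other 9 members fell under the minimum count and are counted in none of these shares. Both shares are near the background. The median member difference was 0.04 and that of all genes 0.0019, with the middle members spanning -0.11 to 0.26 (quartiles) and all genes -0.24 to 0.30. The spread of all genes depended on count. Their quartiles were -0.59 and 0.43 at mean counts of 20 to 50, and -0.18 and 0.21 at 1000 to 2000. The comparisons with all genes here are not matched for count, so a narrower spread cannot be read as a trait of chaperones. Less than 1.5-fold apart were 58 members, or 92.1%, beside 76.9% of all genes. Past 2-fold higher stood 2 members, beside 8.44% of all genes, and past 2-fold lower none of the 63, beside 2.56%.

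**Figure D4:**
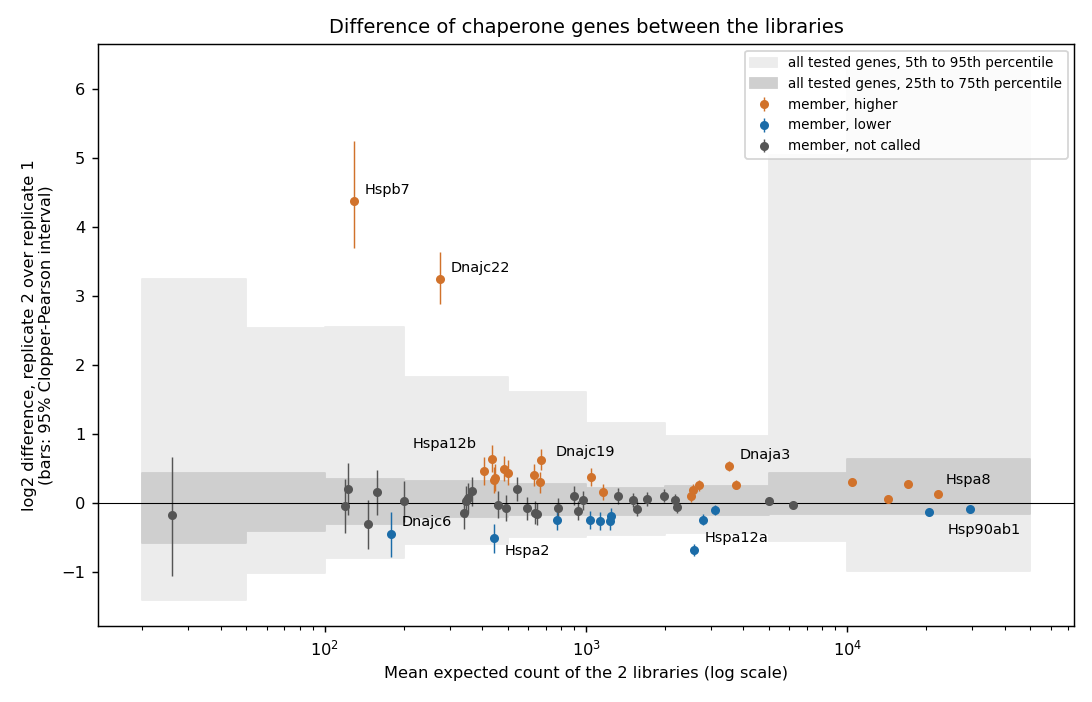
log2 difference of each of the 63 tested members, replicate 2 over replicate 1 (y axis, bars are 95% Clopper-Pearson intervals of counting error), against the mean expected count (x axis, log scale), over the percentile bands of all tested genes in bins of count. Hspb7 and Dnajc22 stand alone above the rest at 4.37 and 3.24, while the most abundant members lie within 0.30 of 0.

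The members past 2-fold under TMM were Hspb7 and Dnajc22. Hspb7, a small heat shock protein of heart and skeletal muscle, had 16 expected counts in replicate 1 and 242 in replicate 2 (0.17 and 2.75 TPM), a log2 difference of 4.37 (95% interval 3.68 to 5.24) with an adjusted p of 3.00e-70 by the exact test. Other muscle members were few in counts but also more abundant in replicate 2: Hspb2 had 10 and 26 counts and Hspb3 had 1 and 10, both under the test's minimum. The 8 skeletal muscle markers were all higher in replicate 2, with a median log2 difference of 4.93. Of the heart markers Nppa was at 0 in both libraries and Myl7 at 1 count and Tnnt2 at 18 counts in each, while Myh6 went from 2 to 45.8 counts and Myl2 from 1 to 71. The part of these tissues in the Hspb7 result was not tested.

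Dnajc22 had 71 expected counts in replicate 1 and 479 in replicate 2 (1.48 and 9.92 TPM), a log2 difference of 3.24 (95% interval 2.89 to 3.63) with an adjusted p of 6.97e-108 by the exact test. It moved with the 8 liver markers, whose median difference was 6.32 and whose most abundant gene, Alb (albumin), stood at 189 and 10582 TPM. Their part in the Dnajc22 result was not tested.

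Among the small heat shock genes, 4 of 5 tested were called higher (28.8% of all tested genes), with a median difference of 0.40. Hspb1 rose by 0.49 on the log2 scale, Hspb8 by 0.40 and Hspb6 by 0.36, beside Hspb7, and Hspb11 was not called at -0.04. Under ERCC scaling Hspb8 (0.12) and Hspb6 (0.08) were not called, and under total scaling Hspb1 (0.15) was not called either, while Hspb7 was called at 4.09 and 4.03. Smooth muscle markers were higher in 5 of 5 (30.5 and 45.6 TPM in sum, median difference 1.10). They were called higher in 4 of 5 under ERCC and 3 of 5 under total scaling, beside 15.7% and 14.0% of all tested genes. Their part was not tested. Cryab, the related alpha-B crystallin, had 168 and 361 counts and a difference of 1.60.

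In the mitochondrial class, 5 of 8 were called higher and 2 lower (28.8% and 24.3% of all tested genes), with a median of 0.19. Under ERCC scaling these were 2 and 4, with a median of -0.0924, and under total scaling 2 and 5, with a median of -0.16. Of all tested genes, 15.7% were called higher and 52.8% lower under ERCC scaling (median -0.28), and 14.0% and 58.3% under total scaling (median -0.34). Dnajc19 (0.63) and Dnaja3 (0.53) were called higher under TMM, ERCC and total scaling. Hspa9 (0.27) and Dnajc15 (0.10, adjusted p 0.038 by the exact test) were called higher under TMM and had negative values under the other scalings, and Dnajc30 (0.33) had one under total scaling. The chaperonin genes Hspd1 (-0.13) and Hspe1 (-0.11) were called lower under TMM, and so also under the other scalings, which lower every difference. Hspe1 was not called in the second transcript table. Dnajc15 was not called there either (0.0607, adjusted p 0.236 by the exact test), nor with a minimum mean count of 1 (adjusted p 0.0534). All 5 fat markers were higher in replicate 2, among them Ucp1 at 659 and 774 TPM, a protein of brown fat mitochondria, and their part in these results was not tested.

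The heat-inducible and constitutive classes did not move as blocks. Under TMM, 28.8% of all tested genes were called higher and 24.3% lower. Of the 8 heat-inducible genes, 3 were called higher (Hspb1, Hspb8 and Hsph1, the last at 0.37), none lower, and 5 were not called, with a median of 0.04. Hsph1 was not called under ERCC (0.0918) or total scaling (0.0278). Hspa1a, Hspa1b, Dnajb1 and Hsp90aa1 were at -0.15, -0.16, -0.14 and -0.03, none of them called under TMM, although all 4 were called lower under ERCC and total scaling. Of the 8 constitutive cytosolic genes, 3 were called higher (Dnaja1 at 0.26, Dnaja2 at 0.18 and Hspa8 at 0.12), and all 3 turned negative under ERCC and total scaling. Hsp90ab1 was called lower at -0.09. The immediate early genes, which respond within minutes to stimulation, were called lower in 4 of 7 under TMM, beside 24.3% of all tested genes. Under ERCC and total scaling 6 of 7 were called lower, beside 52.8% and 58.3% of all tested genes. The immediate early genes summed to 216 and 82.3 TPM, and their part was not tested.

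In the endoplasmic reticulum class, 4 of 10 were called higher and 2 lower (28.8% and 24.3% of all tested genes), with a median of 0.04. Hspa5 (0.30), Dnajc3 (0.25), Dnajb11 (0.16) and Hsp90b1 (0.06) were higher under TMM, but Dnajc3, Dnajb11 and Hsp90b1 had negative values under ERCC scaling and all 4 under total scaling. Dnajb14, a membrane J-protein (-0.27), and Hspa13, a short Hsp70 (-0.19), were lower.

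The members that fell most were Hspa12a, Hspa2 and Dnajc6. Hspa12a, a distant Hsp70 relative, had 3578 and 1587 expected counts (22.5 and 10.2 TPM) and fell by 0.68 on the log2 scale (interval -0.76 to -0.59, adjusted p 2.21e-56 by the exact test). Its difference was -0.96 under ERCC and -1.02 under total scaling, the latter past 2-fold. Hspa2, the Hsp70 of spermatocytes, fell by 0.52, Dnajc6 by 0.45, Dnajc8, a partner of the splicing machinery, by 0.26, and Hspa4l, Dnajc18 and Dnajc5 by 0.24 each. All 4 vesicle genes were tested: Dnajc5 and Dnajc6 were called lower (24.3% of all tested genes were) and Dnajc12 and Dnajc13 were not. Markers of the cortex (median -0.86) and of chromaffin cells (median -0.73) were lower in the same library, and their part in these results was not tested. In the opposite direction Hspa12b, the endothelial relative of Hspa12a, was higher by 0.64 (0.36 under ERCC and 0.30 under total scaling). Dnajc28 (0.46) and Dnajc25 (0.44) were called higher under TMM but not under ERCC or total scaling, and all 3 genes stood at 3.93 to 5.76 TPM.

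Genes that work with the members were read from lists, with TMM scaling and so relative to the typical gene, as above. Of 25 co-chaperones, 16 were called higher and 2 lower (28.8% and 24.3% of all tested genes), with a median difference of 0.14. Under ERCC scaling 4 were called higher and 12 lower (median -0.14), and under total scaling 1 and 14 (median -0.20). Of all tested genes, 15.7% were called higher and 52.8% lower under ERCC scaling (median -0.28), and 14.0% and 58.3% under total scaling (median -0.34). Bag3, the stress-induced partner of Hspb8, was lower at -0.40 (39.9 and 22.6 TPM) and Fkbp4, which links Hsp90 to steroid receptors, higher at 0.36 (3644 and 3309 expected counts), a call that total scaling ended at 0.0122. Of the heat shock factors, Hsf1 (15.5 and 9.65 TPM) was lower at -0.19 and Hsf2 (4.89 and 6.26 TPM) higher at 0.75. Of 8 subunits of the cytosolic chaperonin TRiC, 1 was called higher and 2 lower. All 8 were called lower under ERCC and total scaling, beside 52.8% and 58.3% of all tested genes. Of 18 genes of the unfolded protein response, 9 were called higher and 4 lower, beside 5 and 10 under ERCC and 5 and 11 under total scaling: Herpud1, of degradation at the reticulum, was higher at 1.06 and Atf4, a stress transcription factor, lower at -0.68.

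Transcript tables showed which isoforms made up these levels. Of 62 members with a mean of at least 1 TPM, 58 had the same leading transcript in both libraries and 57 a protein-coding leading transcript in both. In 32 members more than 90% of the TPM came from protein-coding transcripts in both libraries. The exceptions included abundant members. Dnajc15, among the 10 most abundant members, had 4.61% and 3.60% of its TPM in its protein-coding transcript, and its leading transcript was of the nonsense-mediated decay type in replicate 1 and a processed transcript in replicate 2. Dnajc19 had 29.1% and 36.3% coding, with a retained-intron transcript leading at 70.9% and 63.7%. Dnaja1 had 46.2% and 52.7% coding, led by a processed transcript at 40.4% and 39.2%, and Dnajc5 was led by a nonsense-mediated decay transcript at 37.4% and 43.7%.

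The second transcript table, a separate quantification of the same libraries, gave a different picture for some of these genes. It put 100% of Dnajc19 in protein-coding transcripts in both libraries, and 71.6% and 66.1% of Dnaja1. For Dnajc15 it gave 2.15% and 1.53%, so the low coding share of that gene was present in both tables. Hspb6 went the other way, from 66.7% and 90.1% in the first table to 6.45% and 23.9% in the second. The leading transcript was the same in both tables and both libraries for 47 of the 62 members.

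**Figure D5:**
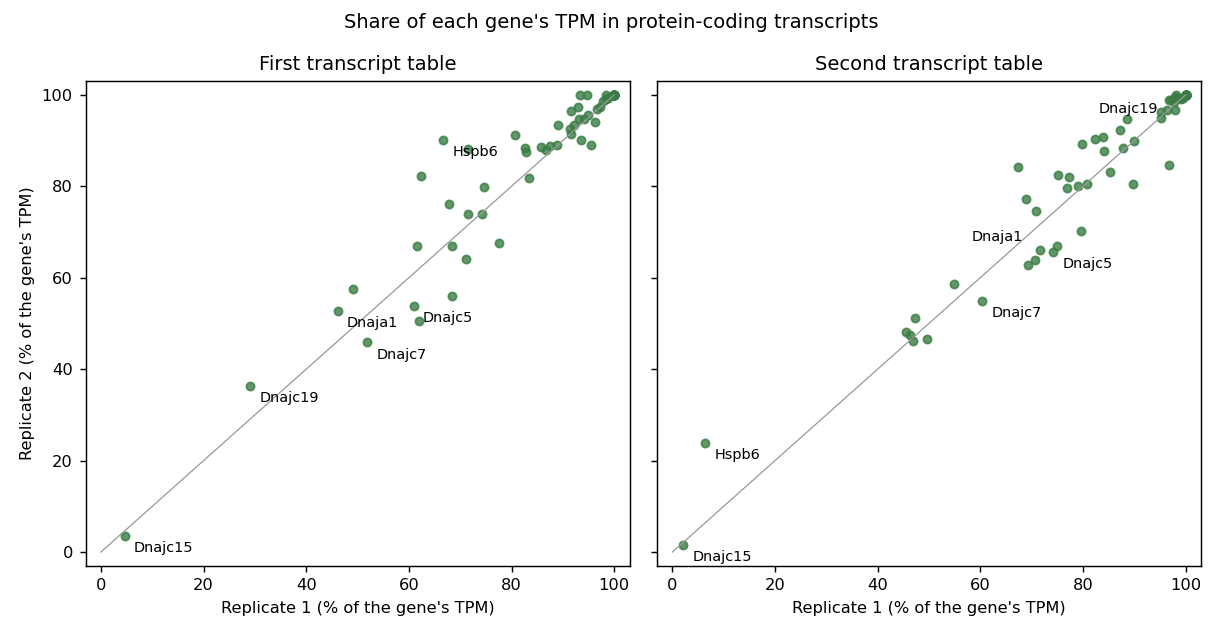
Share of each gene's TPM in protein-coding transcripts, replicate 1 (x axis, %) against replicate 2 (y axis, %), for 62 members in the first (left) and second (right) transcript table, with the diagonal drawn. Dnajc15 lies near the origin in both tables, whereas Dnajc19 moves from 29.1% and 36.3% to 100% and Hspb6 from 66.7% and 90.1% to 6.45% and 23.9%.

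Gene levels were higher in the second table for most members. Over 50 members of at least 5 TPM, the median log2 ratio of second to gene table (TPM plus 1) was 0.63, with a range of 0.23 to 1.38, beside 0.49 for 8417 protein-coding genes of that level. The largest shifts between the tables were in Dnajc11 (33.5 and 26.3 TPM against 84.2 and 73.6 TPM) and Dnajc15 (115 and 105 against 234 and 245), followed by Dnajc13, Dnajc8, Hspa4 and Dnajc14 at log2 ratios of 0.98, 0.95, 0.95 and 0.90. The smallest was in Hsp90b1, at 212 and 146 against 230 and 185 TPM.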

How the data were processed

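Total RNA-seq of 2 adrenal libraries was used as the authors deposited it. Per the file headers, the gene tables hold expected counts, TPM and posterior means with SDs, the first transcript table adds the percent of a gene's TPM in each isoform, and the second transcript table, also deposited, holds estimated counts and TPM. Per the labels the assembly is mm10. The gene identifiers match GENCODE M21. Quantification tools and strand setting: not given in the sources used here. Depth was 37586172 and 33844950 expected counts (38435728 and 32908120 estimated counts in the second table).

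For the tests, expected counts were rounded to whole numbers. TMM factors came from edgeR 4.0.16 (R 4.3.3) and, as an alternative, size factors from DESeq2 1.42.0. With 1 group and 1 library on each side, genes averaging 20 or more counts were tested with an exact conditional binomial test (two-sided, scipy 1.17.1), adjusted by Benjamini-Hochberg over all genes at 0.05, with a prior count of 0.5 for log2 differences and 95% Clopper-Pearson intervals. The calculation was tested on simulated data with counting error only, which cannot show how it performs where libraries vary beyond counting. ERCC shares were 0.337% and 0.322%. Promoter windows came from RefSeq.

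Named members are those of the class lists and the 10 pairs, the 15 of highest mean TPM, the 8 per direction with the largest called differences at a mean count of at least 100, the 6 with the largest shifts between tables at 5 TPM or more, and those under 3 counts by name only. Hspb2, Hspb3, Hspa1l and the co-chaperones and markers named were chosen after their values were seen. The members and lists were chosen with earlier results of these data known. Alternatives were the scaling, the count minimum, the prior count, the second table, coding transcripts only and a pseudocount of 1.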

Additional observations from a re-analysis of the deposited data

Results flagged for a closer look

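Pseudogenes of the member families lie outside the comparisons above. Of the 14, 10 were at 0 expected counts in both libraries. Counts above the 3 that a count of 0 allows were seen for Hspd1-ps3, with 207.24 expected counts in replicate 1 and 82.27 in replicate 2 (3.69 and 1.54 TPM), and for Hspa9-ps1, with 4.01 and 1.00. Their parent genes had 24862 and 16123 (Hspd1) and 18420 and 15782 (Hspa9) expected counts. Whether these reads came from the pseudogenes or the parent genes was not tested.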

How the results depend on the processing

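No paired analysis was possible because the series has 1 group, so no groups share replicate numbers, and leaving out 1 of 2 libraries leaves no comparison. Members called higher and lower were 22 and 12, with DESeq2 size factors also 22 and 12. They were 6 and 37 with ERCC totals and 5 and 44 with total counts. Of all tested genes, 15.7% were called higher and 52.8% lower with ERCC totals, and 14.0% and 58.3% with total counts. The median member difference was -0.24 and -0.30, 0.04 above the median of all genes in each case. ERCC totals gave negative differences for Dnaja1 (-0.0185), Dnaja2 (-0.0945), Dnajb4 (-0.18), Dnajc11 (-0.18), Dnajc14 (-0.24), Dnajc15 (-0.18), Dnajc7 (-0.25), Hsp90b1 (-0.22), Hspa4 (-0.26), Hspa8 (-0.16) and Hspa9 (-0.00775). Total counts gave -0.0825, -0.16, -0.24, -0.24, -0.30, -0.25, -0.31, -0.29, -0.32, -0.22 and -0.0717 for the same genes and -0.0475 for Hspa5. Past 2-fold stood 3 members with total counts, where Hspa12a was at -1.02, and 5 members at a mean count of at least 1. Coding transcripts only gave -4.97 for Hspa1a and Hspa1b to Hspa8, -2.54 for Hsp90aa1 to Hsp90ab1 and -2.65 for Dnajb1 to Dnaja1. The second table gave -2.30 for Hsp90aa1 to Hsp90ab1 and -0.0768 for Hsp90b1 to Hspa5. The median member level was 15.2 TPM in the second table and 33.8 TPM when rescaled to protein-coding genes. The cause of these shifts was not tested beyond the scaling itself.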
